A study of Mus musculus with 9 samples.

Results

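The genes described here are 48 genes of mitosis, chosen by name: the kinases and cyclins that start mitosis, the chromosomal passenger complex, the spindle checkpoint, the kinetochore, the spindle kinesins, condensin with topoisomerase II, and cytokinesis. The choice was made with earlier results of these data known. They are 48 of the 16593 genes named on an Illumina mouse bead array. Of the 48, 42 had a probe, and 36 had at least 1 probe above background (detection p under 0.01) on 3 or more of the 9 arrays. Of these 36 measured genes, 31 were detected on all 9 arrays and 5 on fewer. The cells were cancer stem cells of mouse salivary gland (strain C57BL/6), cultured after primary isolation in medium with KSR and β-mercaptoethanol. They had 24 h of LF3, of ICG-001 or of DMSO, the solvent control, with 3 arrays a group. Both compounds are Wnt pathway inhibitors: LF3 is known to keep β-catenin from TCF4, and ICG-001 is known to keep it from the coactivator CBP. All groups share the same cells and medium. The labels give no genotype beyond the strain, no dose, and no statement that the replicates were separate cultures, so p-values measure the spread between these arrays alone, and that spread may be technical.

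In mitosis the kinase CDK1 with its cyclins drives chromosome condensation and spindle assembly, and the kinases PLK1, Aurora A and Aurora B act beside it. Kinetochores, built on the centromeric histone CENP-A, join chromosomes to spindle microtubules, and the spindle checkpoint holds back the anaphase-promoting complex until every kinetochore is attached. Most of these genes are transcribed late in the cell cycle, under the B-Myb and FOXM1 complexes that bind a short promoter element, the cell cycle homology region (CHR), so their RNA is a common readout of how many cells of a culture are dividing. In bulk RNA, fewer dividing cells and less RNA per dividing cell cannot be told apart.

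Mean signal per array was 340 to 396.5 in LF3 cells, 368.3 to 409.4 in ICG-001 cells and 398.2 to 467.3 in DMSO cells, and 9939 to 10897 of the 25697 probes were detected per array. Most markers of differentiated salivary cells were not detected: 8 of 11 acinar genes (among them Amy1, Smgc and Bhlha15), 7 of 10 ductal genes (among them Krt7, Krt18 and Krt19) and 7 of 9 basal and myoepithelial genes (among them Krt5, Krt14 and Trp63) were detected on no array. The acinar genes Aqp5, Xbp1 and Slc12a2 and the ductal gene Wfdc2 were detected on all 9. Of the markers of other cells on the array, 4 of 6 leukocyte, 6 of 8 fibroblast and 6 of 7 endothelial genes were detected on no array, among them Ptprc, Col1a2 and Pecam1. Of 9 stem cell markers, 3 (Prom1, Cd24a and Aldh1a1) were detected on no array and 4 (Aldh3a1, Cd44, Itgb1 and Sox2) on all 9 arrays. The summed normalized intensity of these 9 markers was 19300 to 21200 in LF3 cells and 9270 to 10700 in ICG-001 cells, against 19200 to 21000 in DMSO cells. A sum of intensities is weighted to its brightest genes, so it need not describe the list as a whole. For the 10 ductal markers the sum was 3620 to 4260 in LF3 cells and 3140 to 3540 in ICG-001 cells, against 5560 to 6550 in DMSO cells. It was lower under both compounds, but 7 of the 10 were detected on no array and only Wfdc2 on all 9. It is thus no measure of 10 genes. The part of these markers in the results below was not tested.

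Under ICG-001, mitosis genes fell, and under LF3 few passed the test against DMSO. Of the 36 measured genes, 23 fell and 0 rose in ICG-001 minus DMSO (limma, Benjamini-Hochberg adjusted p under 0.05 over all probes kept), where 18.9% of all 7354 genes tested were lower and 37.7% passed in either direction. In LF3 minus DMSO, 2 fell and 0 rose, where 11.4% of all genes were lower, 11% higher and 22.4% either. In LF3 minus ICG-001, 22 were higher under LF3 and 0 lower, where 20.2% of all genes were higher and 39.7% passed in either direction. By the F test among the 3 groups 26 of the 36 passed, against 52.3% of all genes. The median log2 difference of the measured genes was -0.50 for ICG-001 minus DMSO (-0.48 with Ccna2 at its bound), -0.07 for LF3 minus DMSO, and for the direct comparison of LF3 with ICG-001 0.44 (0.42 with Ccna2 at its bound), beside 0.00, 0.01 and 0.00 over all genes. The comparisons with DMSO share the DMSO arrays, so their values are given side by side and not correlated.

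The drop under ICG-001 was moderate in size. The 23 genes that fell were 1.27-fold to 2.27-fold lower, and 15 of the 36 were at least 1.5-fold lower by fitted difference, a size that 9.8% of all genes reached. The 23 and the 15 include Ccna2, detected on no ICG-001 array, whose bound is at least 1.32-fold lower. Ccna2 passed the detection filter through its LF3 and DMSO arrays alone. Of the 31 genes detected on all 9 arrays, 20 fell and 0 rose, where 19.8% of all genes so detected were lower. In all, 4 genes were at least 2-fold lower by fitted difference: Cdc25c, Ncapd2, Pttg1 and Plk1. For all 23 the 3 ICG-001 arrays lay below the 3 DMSO arrays; 28 of the 36 genes had such groups, against 25% of all genes. Array by array, the median of the 36 genes stood at -0.54, -0.41 and -0.52 on the ICG-001 arrays relative to the DMSO mean, at -0.07, 0.00 and -0.05 on the LF3 arrays, and at 0.01, -0.02 and 0.00 on the DMSO arrays. An ICG-001 array held the lowest of the 9 values for 31 of the 36 genes and the highest for 0 of them.

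**Figure D1:**
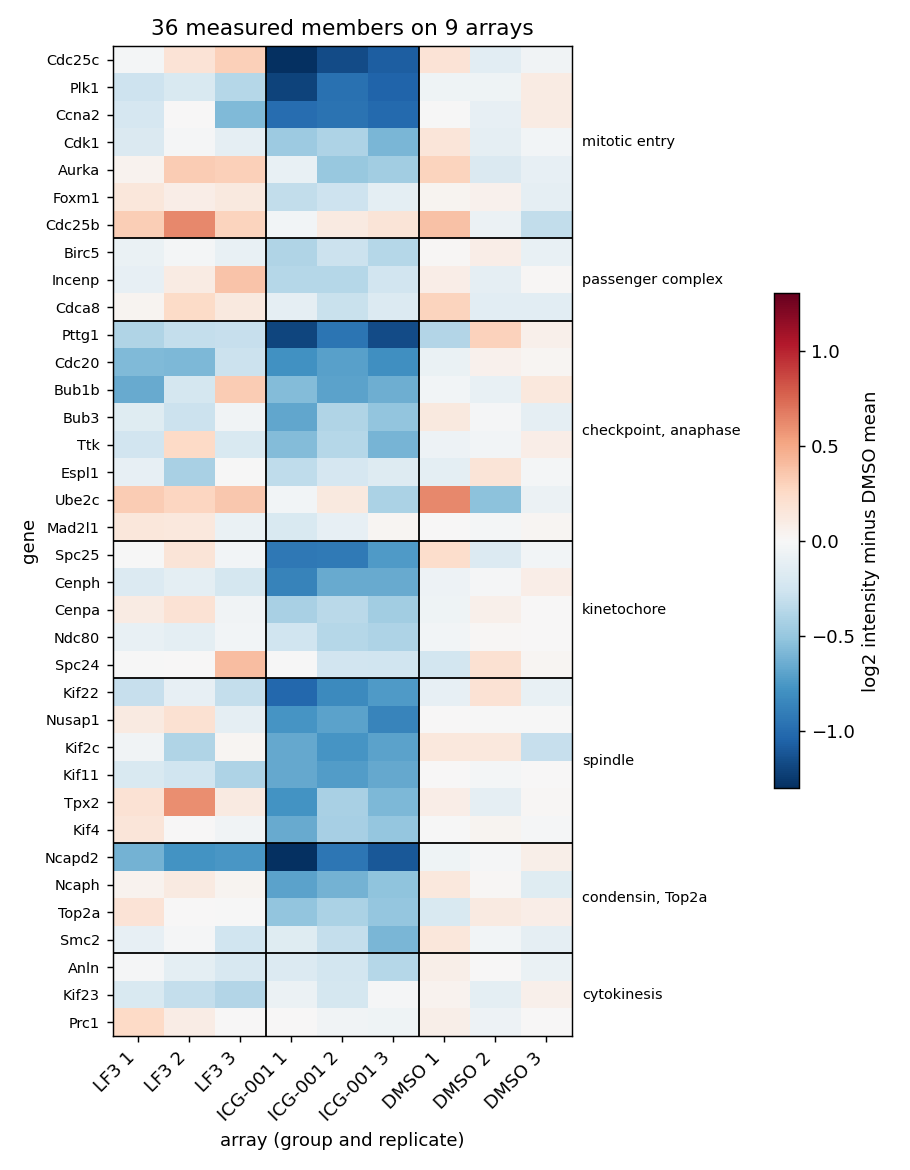
Heat map of the 36 measured genes (rows, grouped by role) on the 9 arrays (columns, in the order LF3, ICG-001, DMSO); the colour is the log2 intensity minus the mean of the 3 DMSO arrays. The ICG-001 columns are blue (lower) in most rows and pale in the cytokinesis rows; Ncapd2 and Cdc20 are the 2 rows that passed under LF3.

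The promoters of the 48 genes, measured or not, were read for the motifs of their known regulators. The genes were chosen by name as mitosis genes, so the shares below describe that list and not a response to the inhibitors. RefSeq windows (GRCm38.p6) of 250 bases before to 50 after a start site were at hand for 39 of the 48 genes, 42 windows in all, some of which overlap. The CHR letters TTTGAA, searched on either strand, were in 31 of 42 windows (73.8%), against 11.6% of the 7835 windows of genes tested and 17.9% of all 32851 windows. The CCAAT box of NF-Y was in 33 (78.6%), against 38.6% and 37.4%, and 28 windows (66.7%) held both, against 4.84% and 6.95%. The E2F letters TTTGGCG or TTTCGCG were in 3 windows (7.14%), against 4.58% and 2.37%. The TCF core CTTTGA, which shares letters with TTTGAA, was in 7 windows (16.7%), against 11.4% and 16%, and in 3 of those 7 it overlapped a CHR match. The CHR matches lay close to the start site: 29 of 39 (74.4%) began between base -50 and base 50, against 24.7% of matches in the windows of genes tested. Among measured genes, the CHR letters were in 16 of 21 windows (76.2%) of those that fell under ICG-001 and in 9 of 11 (81.8%) of those that did not pass, 2 shares whose difference was not tested. Below are the windows of the 3 genes with the lowest adjusted p under ICG-001 whose window holds the CHR letters and may be printed, 5′ to 3′ in the direction of the gene, with CHR and CCAAT matches of either strand in capitals. They show the CCAAT boxes and the CHR in 3 arrangements, for Plk1 (chr7:122159185-122159484, plus strand), Ncapd2 (chr6:125191537-125191836, minus strand) and Kif22 (chr7:127042371-127042670, minus strand).
Plk1: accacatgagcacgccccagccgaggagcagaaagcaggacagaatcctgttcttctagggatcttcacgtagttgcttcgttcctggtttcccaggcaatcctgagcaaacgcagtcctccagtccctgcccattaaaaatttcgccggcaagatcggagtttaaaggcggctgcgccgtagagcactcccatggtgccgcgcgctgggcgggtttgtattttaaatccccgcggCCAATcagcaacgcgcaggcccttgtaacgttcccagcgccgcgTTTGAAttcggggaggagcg
Ncapd2: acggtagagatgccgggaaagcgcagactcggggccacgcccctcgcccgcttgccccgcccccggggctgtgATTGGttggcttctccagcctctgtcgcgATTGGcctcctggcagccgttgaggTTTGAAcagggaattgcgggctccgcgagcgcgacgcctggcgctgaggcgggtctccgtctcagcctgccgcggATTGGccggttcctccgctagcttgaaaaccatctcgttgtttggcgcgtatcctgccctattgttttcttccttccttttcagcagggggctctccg
Kif22: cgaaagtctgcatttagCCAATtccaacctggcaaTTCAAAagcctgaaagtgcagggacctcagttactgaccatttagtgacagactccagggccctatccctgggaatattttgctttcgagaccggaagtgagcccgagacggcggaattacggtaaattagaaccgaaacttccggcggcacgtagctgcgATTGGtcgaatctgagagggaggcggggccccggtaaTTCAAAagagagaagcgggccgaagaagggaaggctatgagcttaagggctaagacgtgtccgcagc
In the Plk1 window 1 CCAAT box begins at base -14 and the CHR at base 31, past the start site. The Ncapd2 window holds 3 CCAAT boxes and a CHR at base -123. The Kif22 window holds 2 of each, the nearer pair at bases -54 and -17. A match is a string of letters and shows no binding.

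**Figure D2:**
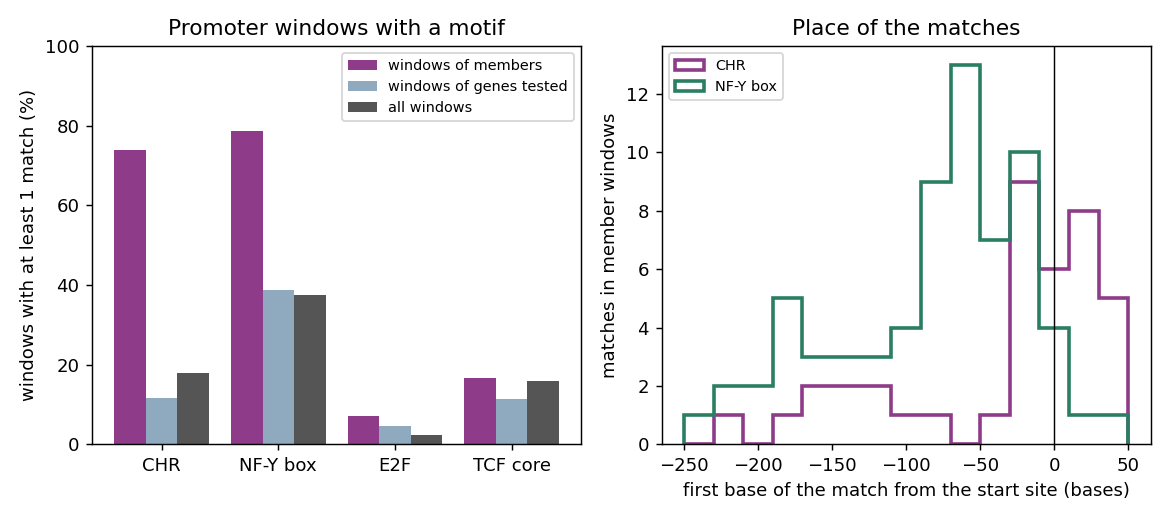
Left, bars of the percent of promoter windows with at least 1 match to the CHR, the NF-Y box, the E2F site and the TCF core, for windows of the 48 genes, of genes tested and of all genes; right, counts of CHR and NF-Y box matches in windows of the 48 genes by distance of the first base from the start site, in bins of 20 bases. CHR bars stand at 73.8%, 11.6% and 17.9%, and CHR matches gather around the start site with NF-Y boxes upstream of them.

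Among the genes that start mitosis, 4 of 7 measured fell under ICG-001 and 0 of 7 passed under LF3, with medians of -0.49 and 0.13. For this role group and those below, the shares of all genes lower were 18.9% under ICG-001 and 11.4% under LF3. Plk1 encodes Polo-like kinase 1, which drives entry, spindle assembly and exit. Its log2 intensity was 10.24, 10.31 and 10.14 in LF3 cells and 9.31, 9.54 and 9.47 in ICG-001 cells, against 10.45, 10.45 and 10.62 in DMSO cells. The ICG-001 arrays were the 3 lowest, and the LF3 arrays also lay below the DMSO arrays. Plk1 was 2.1-fold lower under ICG-001 (log2 difference -1.07, SE 0.12, limma adjusted p = 1.1e-05) and stood at -0.28 under LF3 (adjusted p = 0.098).

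Cdc25c encodes a phosphatase that activates CDK1. It stood at 8.13, 8.34 and 8.47 in LF3 cells and at 6.85, 7.00 and 7.09 in ICG-001 cells, against 8.34, 8.02 and 8.11 in DMSO cells. LF3 and DMSO arrays overlapped, and every ICG-001 array was lower than any other array. The 2.27-fold drop under ICG-001 (-1.18, SE 0.13, limma adjusted p = 1.33e-05) was the largest of the 36 by fitted difference, and a second probe gave -1.17 (adjusted p = 0.000109). Between the inhibitors Cdc25c was 2.53-fold higher under LF3 (1.34, adjusted p = 6.97e-06).

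Ccna2, which encodes cyclin A2, was dim: 5.51, 5.73 and 5.16 in LF3 cells and 4.74, 4.77 and 4.72 in ICG-001 cells, against 5.72, 5.62 and 5.84 in DMSO cells. It was not well above background on any ICG-001 array and on 1 of the 3 LF3 arrays. Its level was therefore at least 1.32-fold lower in ICG-001 than in DMSO cells, a bound set from the lowest detected signals (measured means 4.74 and 5.73, limma adjusted p = 0.000107). The filter kept Ccna2 through its LF3 and DMSO arrays alone, so its p-value lends the fall no separate support. Cdk1, the kinase that cyclins A and B activate, fell by 0.49 under ICG-001 (adjusted p = 0.00542) and stood at -0.11 under LF3 (adjusted p = 0.531). Aurka, the Aurora A kinase of the centrosome, stood at 0.23 under LF3 and -0.34 under ICG-001, neither past the threshold against DMSO, and was 0.58 higher in LF3 than in ICG-001 cells (adjusted p = 0.00869). Foxm1, which encodes a transcription factor of mitosis genes, had the same pattern of calls: 0.13 under LF3, -0.24 under ICG-001 (adjusted p = 0.115) and 0.36 between them (adjusted p = 0.0201). A second Foxm1 probe gave -0.13, -0.34 and 0.21 (adjusted p = 0.535, 0.0685 and 0.249), so the last call rested on 1 probe.

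Cdc25b, a second phosphatase of the family, was the 1 measured gene above 0 under ICG-001. It stood at 7.38, 7.68 and 7.35 in LF3 cells and at 7.02, 7.18 and 7.23 in ICG-001 cells, against 7.44, 6.98 and 6.74 in DMSO cells. The DMSO arrays spanned the ICG-001 values, and the first DMSO array lay within the LF3 values. The difference was 0.09 under ICG-001 (limma adjusted p = 0.704) and 0.41 under LF3 (adjusted p = 0.0871), and without the first DMSO array the LF3 difference passed at 0.61 (adjusted p = 0.00871). The Ccnb2 probe was detected on no array, and Ccnb1 had no probe, so the B-type cyclins were not measured.

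The chromosomal passenger complex corrects faulty attachments and later sits at the midzone. Its 3 measured genes stood at -0.35 to -0.20 under ICG-001 and at -0.08 to 0.14 under LF3, and 1 of the 3 fell under ICG-001. Birc5, which encodes survivin, stood at 12.06, 12.12 and 12.05 in LF3 cells and at 11.76, 11.87 and 11.78 in ICG-001 cells, against 12.17, 12.24 and 12.05 in DMSO cells. The ICG-001 arrays lay below both other groups, which overlapped. The fall of 0.35 (limma adjusted p = 0.0227) was seen again on a second probe at -0.39 (adjusted p = 0.0248), another gave -0.35 (adjusted p = 0.0518), and the call ended without DMSO array 2 or ICG-001 array 1 or 3, with adjusted p up to 0.0934.

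Incenp, the scaffold of the complex, stood at 10.04, 10.26 and 10.52 in LF3 cells and at 9.78, 9.78 and 9.90 in ICG-001 cells, against 10.24, 10.03 and 10.17 in DMSO cells. It missed the threshold under ICG-001 (-0.33, limma adjusted p = 0.0692) and was 0.45 higher in LF3 than in ICG-001 cells (adjusted p = 0.0152). Cdca8, which encodes borealin, stood at 9.90, 10.11 and 9.99 in LF3 cells and at 9.74, 9.57 and 9.68 in ICG-001 cells, against 10.15, 9.72 and 9.72 in DMSO cells. The first DMSO array was the highest of the 9, and neither inhibitor passed (0.14 and -0.20, adjusted p = 0.506 and 0.272). Aurkb, the kinase of the complex, had no probe.

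Of 8 measured genes of the spindle checkpoint and anaphase onset, 5 fell under ICG-001 and 1 fell under LF3, with medians of -0.52 and -0.17. The 12.5% lower under LF3 is near the 11.4% of all genes. Pttg1 encodes securin, which holds separase inactive until anaphase. It stood at 6.04, 6.12 and 6.13 in LF3 cells and at 5.24, 5.48 and 5.27 in ICG-001 cells, against 6.05, 6.73 and 6.50 in DMSO cells. The first DMSO array fell within the LF3 values and the ICG-001 arrays were lowest. Pttg1 was 2.14-fold lower under ICG-001 (-1.10, SE 0.15, limma adjusted p = 0.000102). The probe was dim, detected on 2 of 3 ICG-001 arrays, and its fall ranged from -1.53 with the authors' values to -0.68 without background correction, past the threshold in each. Under LF3 it stood at -0.33 (adjusted p = 0.145), a difference that passed without the first DMSO array (-0.52, adjusted p = 0.0121).

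Cdc20 encodes the activator of the anaphase-promoting complex that the checkpoint restrains. Its brightest probe stood at 10.73, 10.72 and 11.02 in LF3 cells and at 10.51, 10.59 and 10.50 in ICG-001 cells, against 11.21, 11.36 and 11.33 in DMSO cells. All inhibitor arrays lay below all DMSO arrays. Cdc20 fell by 0.48 under LF3 (limma adjusted p = 0.0124) and by 0.76 under ICG-001 (adjusted p = 0.000236). Its 3 other probes gave -0.17 to -0.11 under LF3 (adjusted p from 0.487 to 0.531), and under ICG-001 one of them passed (-0.54, adjusted p = 0.00274) while the other two stood at -0.33 and -0.30. The LF3 call thus rested on 1 of 4 probes, and it also ended without the second DMSO or the second LF3 array.

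Bub3, a checkpoint protein that brings BUB1 and BUBR1 to kinetochores, stood at 7.10, 6.98 and 7.21 in LF3 cells and at 6.58, 6.87 and 6.75 in ICG-001 cells, against 7.39, 7.24 and 7.14 in DMSO cells. The ICG-001 arrays were the 3 lowest. It fell by 0.53 in ICG-001 cells (limma adjusted p = 0.00423) and stood at -0.16 under LF3 (adjusted p = 0.374). Bub1b, which encodes BUBR1, fell by 0.63 in ICG-001 cells (adjusted p = 0.0182), with LF3 arrays spread from 6.88 to 7.87, and leaving out DMSO array 3 or ICG-001 array 2 ended the call (0.0641 and 0.0583). Ttk, the MPS1 kinase that starts checkpoint signalling, fell by 0.51 (adjusted p = 0.0129; 0.0506 without ICG-001 array 3) and was detected on 2 of 3 ICG-001 arrays. Mad2l1, which encodes the inhibitor MAD2, did not pass: it stood at 0.06 under LF3 and -0.10 under ICG-001, with a 95% interval of -0.35 to 0.16 for ICG-001 (adjusted p = 0.552). Espl1, which encodes separase, stood at -0.18 and -0.24 (adjusted p = 0.348 and 0.169). Ube2c, the ubiquitin-conjugating enzyme of the anaphase-promoting complex, was dim, detected on 3 LF3 arrays, 2 ICG-001 arrays and 1 DMSO array, and its DMSO values of 5.89, 4.74 and 5.19 spanned all others, with 0.32 under LF3 and -0.11 under ICG-001 (adjusted p = 0.334 and 0.732). The Bub1 probe was detected on no array.

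At the kinetochore 4 of 5 measured genes fell under ICG-001 and 0 of 5 passed under LF3, with medians of -0.41 and 0.04. Spc25, a subunit of the NDC80 complex that grips microtubules, stood at 9.36, 9.54 and 9.33 in LF3 cells and at 8.44, 8.45 and 8.63 in ICG-001 cells, against 9.60, 9.19 and 9.33 in DMSO cells. LF3 and DMSO arrays overlapped, and the ICG-001 arrays lay well under both. Spc25 was 1.82-fold lower under ICG-001 (-0.87, SE 0.13, limma adjusted p = 0.00018), and a second probe gave -0.87 as well (adjusted p = 0.000225), while under LF3 it stood at 0.04 with a 95% interval of -0.24 to 0.32.

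Cenph, of the inner kinetochore, stood at 7.81, 7.86 and 7.76 in LF3 cells and at 7.12, 7.33 and 7.33 in ICG-001 cells, against 7.92, 7.97 and 8.08 in DMSO cells. The 3 groups did not overlap, with LF3 in between. It was 1.66-fold lower under ICG-001 (-0.73, limma adjusted p = 0.000242) and at -0.18 under LF3 (adjusted p = 0.29). Cenpa, the centromeric histone, stood at 13.06, 13.14 and 12.90 in LF3 cells and at 12.53, 12.60 and 12.50 in ICG-001 cells, against 12.89, 13.02 and 12.95 in DMSO cells. Its 1.33-fold drop under ICG-001 (-0.41, adjusted p = 0.0114) was small but larger than the SD of 0.05 and 0.07 among the ICG-001 and DMSO arrays. Ndc80, which encodes the microtubule-binding HEC1, fell by 0.34 (adjusted p = 0.0225), but leaving out DMSO array 2 or 3 or ICG-001 array 2 or 3 ended that call (adjusted p up to 0.0823). Spc24, the partner of SPC25, did not pass: its probes gave 0.14 and -0.32 under LF3, and -0.17 and -0.14 under ICG-001 (adjusted p from 0.241 to 0.606). Thus 2 subunits of the NDC80 complex were called and 1 was not; whether they differ from each other was not tested. The probes of Nuf2, the fourth subunit, and of Cenpe, a kinetochore motor, were detected on no array, and Cenpf had no probe.

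The spindle group was the most complete: all 6 measured genes fell under ICG-001 (median -0.70) and all 6 were higher in LF3 than in ICG-001 cells (median 0.60), while 0 of 6 passed under LF3. With median scaling Kif11, Kif2c and Kif4 lost the call between the inhibitors (limma adjusted p = 0.325, 0.0619 and 0.0706), and the other 3 kept it. Kif22, a chromosome arm motor (the kinesin KID), stood at 10.52, 10.71 and 10.51 in LF3 cells and at 9.80, 9.99 and 10.08 in ICG-001 cells, against 10.71, 11.01 and 10.72 in DMSO cells. The ICG-001 arrays were lowest, and the highest LF3 value and the lowest DMSO value were equal to 2 decimals. Kif22 was 1.81-fold lower under ICG-001 (-0.86, SE 0.13, limma adjusted p = 0.000168) and at -0.23 under LF3 (adjusted p = 0.211).

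Nusap1, a protein that bundles spindle microtubules, stood at 11.03, 11.11 and 10.79 in LF3 cells and at 10.14, 10.21 and 10.05 in ICG-001 cells, against 10.91, 10.90 and 10.90 in DMSO cells. The DMSO arrays were nearly equal, and the LF3 arrays lay around them. It was 1.71-fold lower under ICG-001 (-0.77, limma adjusted p = 0.000192); a much dimmer second probe, detected on no ICG-001 array and on 2 DMSO arrays, gave -0.13 (adjusted p = 0.565). Kif11, the Eg5 motor that separates spindle poles, stood at 8.88, 8.82 and 8.68 in LF3 cells and at 8.41, 8.35 and 8.41 in ICG-001 cells, against 9.09, 9.05 and 9.09 in DMSO cells. The 3 groups did not overlap. It was 1.61-fold lower under ICG-001 (-0.69, adjusted p = 0.000268) and at -0.28 under LF3 (adjusted p = 0.0779). The LF3 difference passed with no filter on dim probes (adjusted p = 0.0318), with the mean of a gene's probes (0.049) and with median scaling (-0.57, 0.00807).

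The other 3 spindle genes moved likewise. Kif2c, the microtubule-depolymerising MCAK, fell by 0.71 in ICG-001 cells (limma adjusted p = 0.00204), and Tpx2, the activator of Aurora A, fell by 0.59 (adjusted p = 0.00573). Tpx2 stood at 0.31 under LF3 (adjusted p = 0.148), with all LF3 arrays above all DMSO arrays, and was 1.86-fold higher in LF3 than in ICG-001 cells (adjusted p = 0.000333). Kif4, a chromokinesin, fell by 0.53, and its 2 other probes fell by 0.79 and 0.47 (adjusted p = 0.00251, 0.000189 and 0.00911), with 0.01 to 0.21 under LF3.

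**Figure D3:**
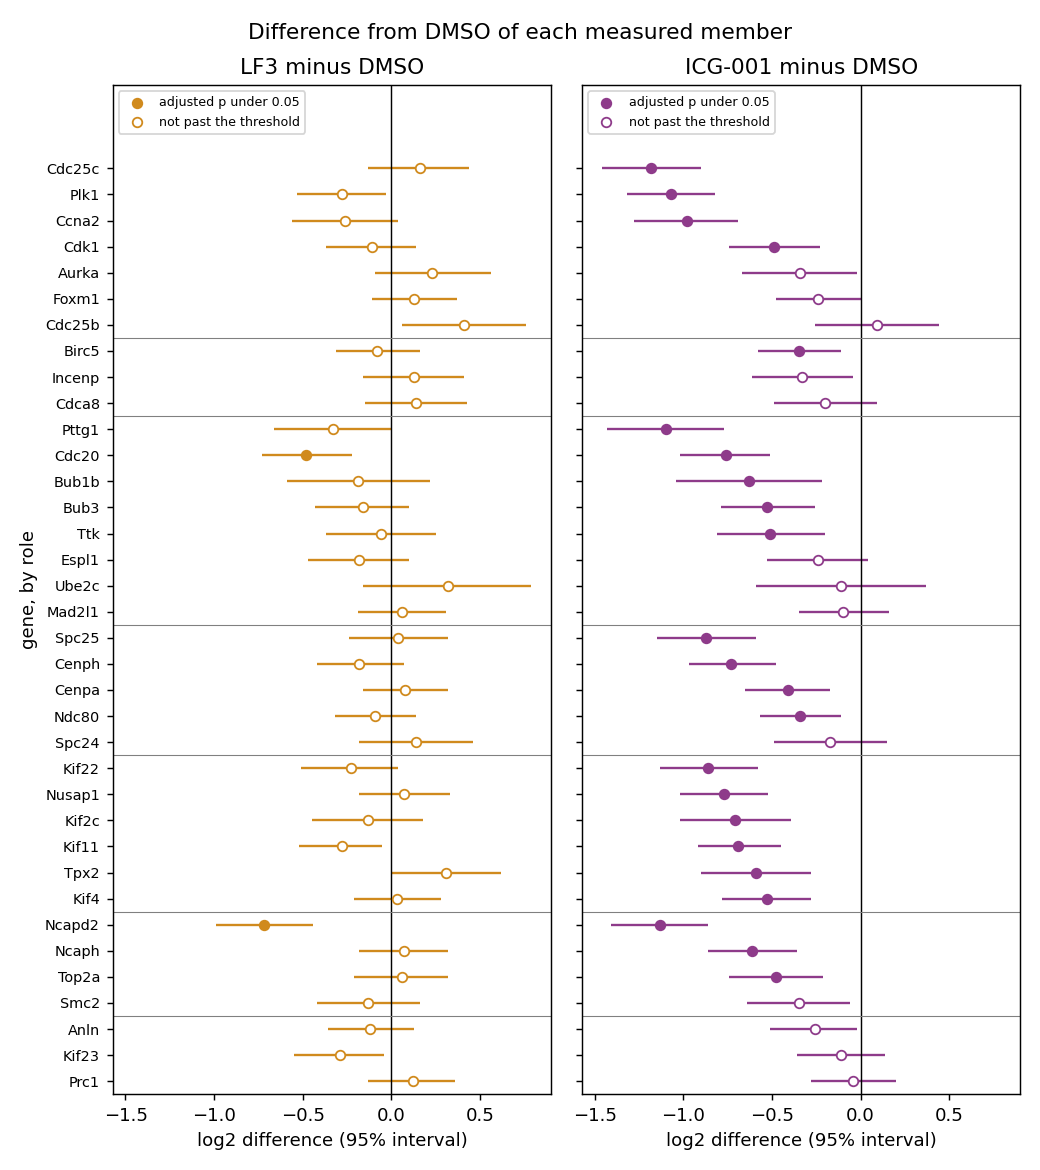
Log2 difference from DMSO of each of the 36 measured genes with its 95% interval, LF3 on the left and ICG-001 on the right, grouped by role; filled points passed at an adjusted p under 0.05. On the left 2 points are filled (Cdc20 and Ncapd2), on the right 23, with all 6 spindle genes among them and 0 of 3 cytokinesis genes.

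Condensin, which compacts chromosomes, and topoisomerase II, which untangles them, had 4 measured genes, of which 3 fell under ICG-001 and 1 under LF3 (medians -0.54 and -0.04). Ncapd2, a regulatory subunit of condensin I, was the gene with the lowest adjusted p of the 36 under LF3. Its brightest probe stood at 9.24, 9.07 and 9.09 in LF3 cells and at 8.48, 8.91 and 8.75 in ICG-001 cells, against 9.79, 9.83 and 9.93 in DMSO cells. Every inhibitor array lay below every DMSO array, and ICG-001 lay below LF3. Ncapd2 was 1.64-fold lower under LF3 (-0.72, SE 0.13, limma adjusted p = 0.00175) and 2.2-fold lower under ICG-001 (-1.13, adjusted p = 1.48e-05). A second probe fell by 0.77 under ICG-001 (adjusted p = 0.00878). The remaining probe passed the filter through its LF3 and DMSO arrays alone and was not well above background on any ICG-001 array. Its level there was at least 1.37-fold lower than in DMSO cells, as a bound (measured means 5.04 and 5.78, adjusted p = 0.00195). Neither passed under LF3 (-0.04 and -0.25, adjusted p = 0.917 and 0.267), so the LF3 call rested on 1 of 3 probes.

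Ncaph, the kleisin of the same complex, stood at 10.33, 10.40 and 10.32 in LF3 cells and at 9.58, 9.67 and 9.76 in ICG-001 cells, against 10.42, 10.30 and 10.12 in DMSO cells. LF3 and DMSO arrays overlapped with a clear gap to ICG-001. It was 1.53-fold lower under ICG-001 (-0.61, limma adjusted p = 0.00115) and at 0.07 under LF3 (adjusted p = 0.708). Top2a stood at 10.25, 10.08 and 10.06 in LF3 cells and at 9.56, 9.66 and 9.57 in ICG-001 cells, against 9.87, 10.19 and 10.16 in DMSO cells, and was 1.39-fold lower under ICG-001 (-0.48, adjusted p = 0.0074). Smc2, a core ATPase of condensin, was dim, detected on 2 LF3 arrays, 1 ICG-001 array and 3 DMSO arrays, and stood at -0.35 under ICG-001 (adjusted p = 0.0564). It passed in some other settings, such as array weights (-0.31, adjusted p = 0.0385) and the replicate block (-0.35, adjusted p = 0.0445). Smc4 and Ncapg had no probe.

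Cytokinesis was the role group with 0 calls: none of its 3 measured genes passed under either inhibitor or between them. Over all genes 22.4% passed under LF3, 37.7% under ICG-001 and 39.7% between them. A count of 0 among 3 genes therefore does not set this group apart. Prc1, which bundles the microtubules of the midzone, stood at 12.62, 12.46 and 12.36 in LF3 cells and at 12.37, 12.31 and 12.30 in ICG-001 cells, against 12.44, 12.29 and 12.36 in DMSO cells. All groups overlapped. The ICG-001 difference was -0.04 with a 95% interval of -0.28 to 0.20 (limma adjusted p = 0.81). Kif23, the centralspindlin motor MKLP1, stood at 9.31, 9.20 and 9.13 in LF3 cells and at 9.43, 9.28 and 9.49 in ICG-001 cells, against 9.56, 9.38 and 9.58 in DMSO cells. The LF3 arrays were below the DMSO arrays, and the differences were -0.29 under LF3 (adjusted p = 0.0873) and -0.11 under ICG-001 (95% interval -0.36 to 0.14, adjusted p = 0.501).

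Anln, which encodes the contractile ring scaffold anillin, stood at 11.84, 11.73 and 11.65 in LF3 cells and at 11.68, 11.62 and 11.49 in ICG-001 cells, against 11.94, 11.86 and 11.77 in DMSO cells. The ICG-001 arrays lay below the DMSO arrays by a small margin (-0.26, 95% interval -0.51 to -0.02, limma adjusted p = 0.0858). A second, dimmer probe gave 0.10 (adjusted p = 0.564), so the sign differed between probes; the first probe passed when background was left uncorrected (adjusted p = 0.049), when the offset was 50 (0.0499) and when the variance was trended and robust (0.0359). The intervals of Prc1 and Kif23 did not reach -0.50, the median of the 36 genes, while that of Anln did. Those of Cdc25b, Foxm1, Cdca8, Mad2l1 and Spc24, from other role groups, did not reach it either. This too does not set cytokinesis apart. The Kif20a and Ect2 probes were detected on no array, and Racgap1 had no probe, so cytokinesis was judged on 3 of 6 genes.

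**Figure D4:**
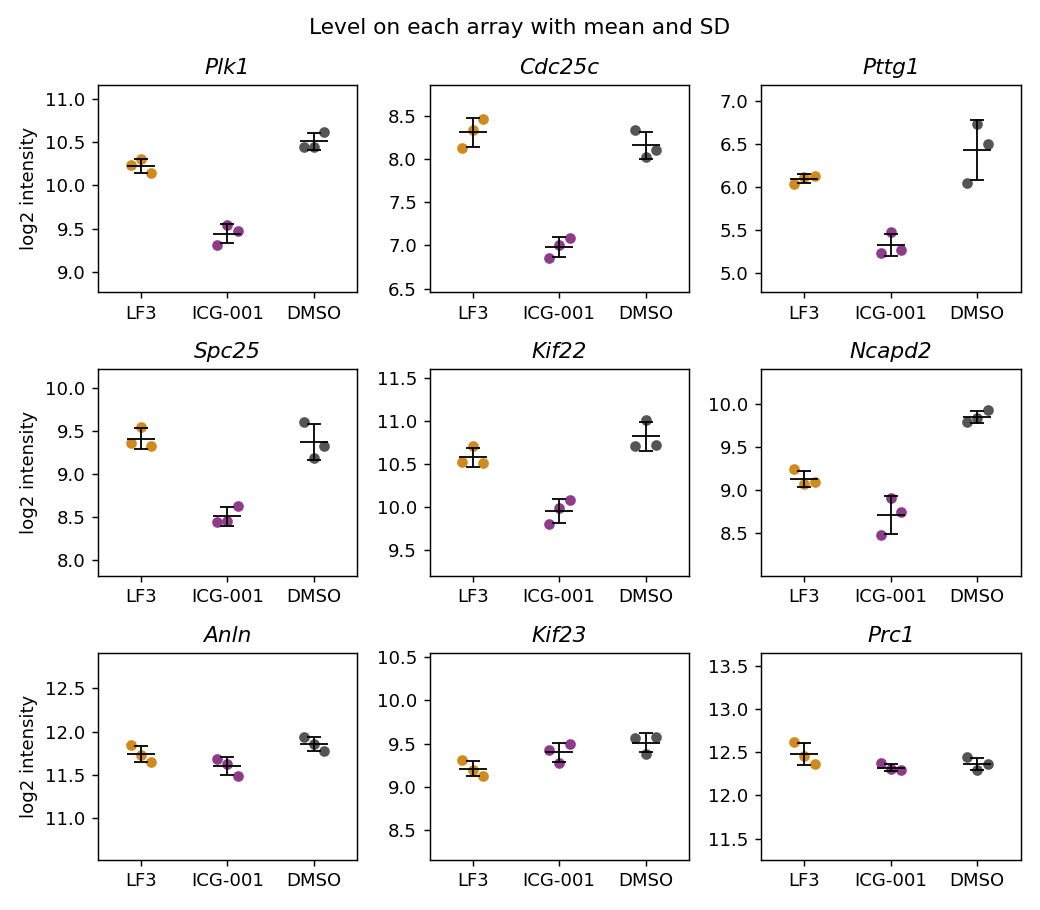
Log2 intensity of 9 genes on each array (points), with the group mean and SD (n = 3) in black, for LF3, ICG-001 and DMSO; all panels have the same log2 span, with different centres. In the upper 6 panels, genes that fell, the ICG-001 points are lowest, while in the 3 cytokinesis panels the groups lie close together.

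The direct comparison asked whether the inhibitors differed in these genes. Of the 36, 22 were higher in LF3 than in ICG-001 cells and 0 lower, and 29 had all LF3 arrays above all ICG-001 arrays, against 26% of all genes. Of the 23 that fell under ICG-001, 19 also passed between the inhibitors, and 4 did not: Birc5 (0.27, limma adjusted p = 0.0641), Bub1b (0.44, adjusted p = 0.077), Cdc20 (0.29, adjusted p = 0.07) and Ndc80 (0.25, adjusted p = 0.077). The 3 others that passed between them were Aurka, Foxm1 and Incenp. Beyond the values above, Pttg1 was 1.7-fold higher in LF3 cells (adjusted p = 0.00156), Plk1 1.72-fold (0.000171), Spc25 1.87-fold (0.000141), Nusap1 1.8-fold (0.000101), Ncaph 1.6-fold (0.000523) and Kif22 1.54-fold (0.00178), while Ccna2 was at least 1.1-fold higher, as a bound (0.00115). Cdk1, Bub3, Ttk, Cenpa, Cenph, Kif11, Kif2c, Kif4, Top2a and Ncapd2 stood 0.36 to 0.57 higher (adjusted p from 0.00169 to 0.0305). Leaving out 1 array ended some of these calls: ICG-001 array 1 for Bub3, Cdk1, Foxm1, Ttk and Ncapd2, ICG-001 array 2 for Foxm1 and Incenp, ICG-001 array 3 for Bub3, Cdk1 and Ttk, LF3 array 1 for Bub3, Foxm1 and Ncapd2, LF3 array 2 for Cdk1 and Ttk, and LF3 array 3 for Bub3 and Incenp. The doses of the compounds are not known here, so the comparison is between these samples.

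For the 34 measured genes that did not pass under LF3, the differences from DMSO ran from -0.33 to 0.41, and their 95% intervals reached from -0.66 to 0.79. Small changes in either direction were thus not detectable with 3 arrays a group. For some genes the interval also held falls as large as the ICG-001 median of -0.50, reaching -0.66 for Pttg1 and -0.59 for Bub1b. In LF3 minus DMSO 6 of 36 genes (16.7%) had an unadjusted limma p under 0.05, against 36% of all genes. Under LF3 the counts depended on the scaling. With arrays scaled to their medians in place of quantile normalization, which put the median of all genes at -0.24, 12 of 36 genes were lower and 0 higher, where 29.1% of all genes were lower and 2.76% higher, and the median of the 36 was -0.28. In the same setting 25 of 36 were lower under ICG-001, where 21.1% of all genes were lower, with a median of -0.59 beside -0.10 for all genes. Between the inhibitors 11 of 36 were higher in LF3 than in ICG-001 cells, where 9.97% of all genes were higher.

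Other genes of mitosis, from lists of 96 genes on the array that share no gene with the 48, were also more often lower than higher under ICG-001: of 79 measured, 31 fell and 2 rose (39.2% lower, against 18.9% of all genes; median -0.24). Under LF3 10 fell and 1 rose (median -0.11), and that 12.7% lower is near the 11.4% of all genes. Whether this share differs from that of the 36 was not tested. These lists, like the 48 genes, were chosen with earlier results of these data known, so their shares are no independent support. Of 24 other spindle, centrosome and cytokinesis genes, 11 fell (45.8%) and 0 rose under ICG-001, among them Aspm, a spindle pole protein (-0.78, limma adjusted p = 9.92e-05), Kif15, a spindle kinesin (-0.78), the microtubule destabiliser Stmn1 (-0.84) and Cep55, a midbody protein of abscission (-0.73). Of 15 other condensin and cohesin genes, 9 fell (60%) and 0 rose under ICG-001, with the lowest adjusted p for the cohesin ATPase Smc1a (-0.71, adjusted p = 0.00016), and 4 fell (26.7%) and 0 rose under LF3, with the lowest adjusted p for the condensin II subunit Ncaph2 (-0.78 under LF3, adjusted p = 0.000532, and -0.64 under ICG-001). Esco2, a cohesin acetyltransferase, fell under LF3 (-0.36) and under ICG-001 (-0.73), and Cdca5, which encodes the cohesin protector sororin, fell under ICG-001 (-0.82).

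Of 22 other kinetochore and checkpoint genes, 5 fell and 1 rose under ICG-001, and 2 fell and 1 rose under LF3, shares lower of 22.7% and 9.09% that are near the 18.9% and 11.4% of all genes. Ska3, of the complex that couples kinetochores to microtubules, fell by 1.16 in ICG-001 cells (limma adjusted p = 1.18e-05) and by 0.46 under LF3. Cenpp, of the inner kinetochore, went the other way round: it fell by 0.83 under LF3 (adjusted p = 0.000566), stood at -0.13 under ICG-001, and was 0.71 lower in LF3 than in ICG-001 cells (adjusted p = 0.000603). Cenpk (-0.68) and Spdl1, which encodes the checkpoint protein Spindly (-0.67), fell under ICG-001, and the riser was Cenpt (0.57), a DNA-contacting kinetochore protein, named after its value was seen. Of 18 other entry regulators and anaphase-promoting complex genes, 6 fell (33.3%) and 1 rose under ICG-001, and 3 fell (16.7%) and 0 rose under LF3. Arpp19, which encodes an inhibitor of the phosphatase PP2A in mitosis, fell by 0.90 under LF3 (adjusted p = 0.000269) and by 0.61 under ICG-001. Cdca2, a phosphatase anchor on chromosomes, stood at 0.27 under LF3 and -0.65 under ICG-001 and was 0.92 higher in LF3 than in ICG-001 cells (adjusted p = 3.59e-05), and Cdca3 (-0.85) and the complex subunit Anapc13 (-0.58) fell under ICG-001.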

How the data were processed

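Total RNA of 9 samples was labelled with biotin and hybridised to Illumina mouse arrays, per the labels' protocols, and the submitters' processing notes name GenomeStudio 2010.1. The deposited signal intensities are linear and not normalized between arrays, and a deposited detection p-value follows each signal column, matched to its sample by that place. The authors' processed intensities served as an alternative; their normalization is not given in the sources used here.

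Groups and replicate numbers came from the sample titles. The platform annotation gave 1 symbol to 23978 of 25697 probes, several to 0 and none to 1719. Background was corrected with the normexp model on detection p-values (neqc steps of limma 3.58.1, R 4.3.3, offset 16), followed by log2 and quantile normalization. A probe was kept where its detection p-value was under 0.01 on 3 or more of 9 arrays (10830 probes, 42.1%; 7354 genes, each by its brightest probe). One limma fit over 9 arrays gave the 3 comparisons, with Benjamini-Hochberg adjustment over all probes kept. Simulated data with known differences and independent noise checked the fit alone. They start from normalized values, so they cannot test the normalization. Levels are log2 intensities; the offset shrinks differences of dim genes, and precision is limited by the number of arrays.

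The genes and lists were chosen with earlier results of these data known. Values on every array are given for the 3 genes of each role with the lowest adjusted p against DMSO, and also for Cdc25b. Named besides are genes called under LF3 or between inhibitors, genes whose probes disagree, unmeasured genes, the smallest changes under ICG-001, and the 4 of each other list with the lowest adjusted p; a few more were named after their values were seen. Windows on chromosome 18 were not printed. Alternatives were background correction, offset, normalization, filters, probe choice, variance model, array weights, the authors' values, the replicate block, fits of 2 groups and leaving out each array. Same-numbered arrays did not deviate together in every pair (r from -0.233 to 0.143), so replicate numbers were not used as pairs.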

Additional observations from a re-analysis of the deposited data

How the results depend on the processing

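Under ICG-001, 19 of the 23 calls passed under every alternative that measured the gene, and Birc5, Bub1b, Ndc80 and Ttk lost theirs under 1 to 4 alternatives. Smc2, Incenp, Aurka, Anln and Espl1, not called in the main fit, were lower past the threshold under some alternatives. The count ran from 20 to 25 with each array left out in turn. Neither LF3 call passed under every alternative, and 11 of the 22 calls between the inhibitors did. The count under LF3 (2) was 12 with median scaling, 1 with the mean of a gene's probes (neither Cdc20 nor Ncapd2), 5 with array weights (3 lower, 2 higher) and 1 to 5 with each array left out, 5 without DMSO array 1. Between inhibitors the count (22) was 11 with median scaling and 17 to 24 with each array left out.

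The median under ICG-001 (-0.50) was -0.43 without background correction, -0.44 with offset 50, -0.59 with median scaling, -0.38 without a filter, -0.58 with the authors' values and -0.55 to -0.46 with each array left out. The median between inhibitors (0.44) was 0.37 without background correction and with offset 50, 0.28 with median scaling, 0.39 without a filter and 0.42 to 0.47 with each array left out. Under LF3 (-0.07) it was -0.28 with median scaling, 0.03 over genes detected on all 9 arrays and -0.07 to -0.02 with each array left out. The causes were not tested. With the replicate number as a block, the counts were 2 under LF3, 24 under ICG-001 and 22 between inhibitors.

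Some differences changed sign, none past the threshold either way. Under LF3 with median scaling these were Cdc25c (-0.15), Cdca8 (-0.09), Cenpa (-0.02), Foxm1 (-0.12), Incenp (-0.09), Kif4 (-0.25), Mad2l1 (-0.11), Ncaph (-0.14), Nusap1 (-0.15), Prc1 (-0.07), Spc24 (-0.16), Spc25 (-0.22) and Top2a (-0.17). The same scaling turned Cdc25b under ICG-001 (-0.01) and Espl1 between inhibitors (-0.14). With the mean of probes they were Cdc25c (-0.05), Foxm1 (0.00) and Spc24 (-0.09) under LF3 and Anln between inhibitors (-0.01), and with array weights Spc24 under LF3 (-0.03) and Ube2c under ICG-001 (0.18). With each array left out, the values under LF3 ran from -0.04 to 0.12 for Top2a, -0.05 to 0.15 for Spc25, -0.01 to 0.14 for Ncaph, -0.45 to 0.05 for Bub1b, -0.03 to 0.08 for Kif4 and -0.22 to 0.04 for Ttk. Under ICG-001 they ran from -0.37 to 0.19 for Ube2c and -0.07 to 0.28 for Cdc25b, and between inhibitors from -0.03 to 0.18 for Espl1. Genes near background, such as Ccna2, Ttk, Ube2c, Pttg1 and Smc2, are limited by their signal.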

Other observations

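Of 10 measured genes of the transcription complexes that regulate mitosis genes (DREAM, B-Myb and NF-Y), 4 fell and 0 rose under LF3 (40% lower, against 11.4% of all genes; median -0.27). Under ICG-001 2 fell and 0 rose (median -0.09), and that 20% lower is near the 18.9% of all genes. Mybl2, which encodes B-Myb, fell by 0.61 under LF3 (limma adjusted p = 0.00363) and by 0.76 under ICG-001 (adjusted p = 0.000296). Nfyc, a subunit of NF-Y, fell by 0.44 under LF3 (adjusted p = 0.0258), stood at 0.17 under ICG-001 (adjusted p = 0.32) and was 0.61 lower in LF3 than in ICG-001 cells (log2 difference -0.61, adjusted p = 0.00199). Tfdp1, an E2F partner, had the same pattern: it fell by 0.40 under LF3 (adjusted p = 0.0317), stood at 0.16 under ICG-001 and gave -0.57 between them (adjusted p = 0.00252). Its relative Tfdp2 stood at -0.38 under LF3 (adjusted p = 0.0873) and fell by 0.50 under ICG-001 (adjusted p = 0.0183). Rbl1 also fell under LF3 (-0.43, adjusted p = 0.0413). The NF-Y subunits Nfya and Nfyb did not pass under LF3 (0.12 and -0.07, adjusted p = 0.52 and 0.754), and E2f5 stood at 0.36 (adjusted p = 0.0515). This list too was chosen with earlier results known, and its values under the alternative settings are not given here.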
